A study of Mus musculus with 18 samples.

Results

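The cytoplasmic ribosomal proteins are the protein components of the ribosome that translates nuclear messages. On the arrays of mouse Purkinje cell ribosomes they were followed as 49 genes, chosen by symbol (Rpl or Rps and a number, or Rplp0, Rplp1 and Rplp2, without pseudogenes and kinases) among the 18194 genes that had a probe set annotated to a single symbol. Each gene was represented by its single-symbol probe set of highest mean over the 18 libraries. Of the 49 genes, 26 belong by symbol to the large subunit and 23 to the small subunit. The filter on dim signal (3 or more libraries at log2 4 or above) was passed by 43 of them, 21 large and 22 small, among 10068 genes tested. The other 6 were Rpl12, Rpl37, Rpl39, Rpl39l, Rpl3l and Rps16. A further 31 symbols of the family, Rpl3, Rpl5, Rpl10 and Rplp1 among them, were annotated only on probe sets with several symbols and are not members. Rps19bp1 meets the symbol rule although it encodes a protein that binds RPS19 and is not itself a ribosomal protein.

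The libraries were made by translating ribosome affinity purification, in which a ribosomal protein carrying a fluorescent tag is expressed in 1 cell type and the ribosomes of that cell type are pulled down with their RNA. All mice of both genotypes, wild type included, carried 1 copy of the L7/Pcp2eEGFPL10a BAC, a bacterial artificial chromosome in which the Purkinje cell promoter Pcp2 (also called L7) drives the tagged L10a protein. They came from crosses of a C57B6 and an FVB parent. The wild-type mice carried that tag alone. The mice called CGG90 also carried the L7CGG90Fmr1 transgene from a heterozygous parent, in which the same promoter drives Fmr1 with an expanded CGG repeat, and no group analysed here carried the transgene with a short repeat. Both genotypes were taken at 4, 8 and 12 weeks of age, with 3 libraries in each of the 6 groups, and each library pooled the cerebella of 4 mice, 2 of each sex. Every p-value therefore measures the spread between pools. A number in the library titles is consecutive over both genotypes at 4 weeks. At 8 and 12 weeks the labelled genotypes have it in separate runs, and what it marks cannot be told apart from genotype there.

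Each ribosome carries 1 set of these proteins around its ribosomal RNA, with the P-stalk (Rplp0, Rplp1 and Rplp2) recruiting the translation factors. Their messages are abundant in most cells and begin with a run of pyrimidines at the cap, the terminal oligopyrimidine motif, through which growth signalling by mTOR and LARP1 controls how many of them are on ribosomes. Purkinje cells, large inhibitory neurons that send the only output of the cerebellar cortex, complete their dendrites in the first postnatal weeks. Because the measured RNA came from ribosomes, a value here reports message bound to tagged ribosomes and not the amount of a ribosomal protein.

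Sequence at the annotated starts was available for 43 of the 49 genes in RefSeq's annotation of GRCm38.p6. In 8 of these 43 genes (18.6%) the start base was a C followed by at least 4 C or T, against 3.01% of the 27025 genes with a start in the same annotation. A run of a C followed by at least 7 C or T began within 20 bases of a start in 22 genes (51.2%), against 16.6% of all genes, searched on the transcript strand only. The starts of 7 genes that recur in the results are printed as 30 bases, 15 before the start base and 15 from it on, 5′ to 3′, because they show how the starts differ. Capitals mark the pyrimidine run, counted from the start base where that base is a C followed by at least 4 C or T. Rplp2 and Rps10, from chr7:141447636-141447665 on the plus strand and chr17:27635230-27635259 on the minus strand, and Rpl38, from chr11:114668565-114668594 on the plus strand, have such a start base. The run of Rpl38 begins there. In Rplp2 and Rps10 the lower-case bases just before it belong to the run too, which begins at -4 and -3 relative to the start base.
Rplp2: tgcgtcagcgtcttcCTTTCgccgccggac
Rps10: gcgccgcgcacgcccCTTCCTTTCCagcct
Rpl38: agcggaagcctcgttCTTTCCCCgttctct
Rpl7a, from chr2:26910792-26910821, and Rpl4, from chr9:64173372-64173401, both on the plus strand, have a run that begins before an annotated start base that is not a C. The run of Rpl4 reaches beyond the bases printed.
Rpl7a: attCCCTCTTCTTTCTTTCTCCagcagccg
Rpl4: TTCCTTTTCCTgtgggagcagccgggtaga
Rpl6, from chr5:121204486-121204515, and Rpl10a, at the first of its 2 annotated starts, from chr17:28328456-28328485, both on the plus strand, hold no run of that kind in these bases. Rpl10a is nevertheless counted among the 22 genes, because a run of 10 begins 17 bases after its second start, outside the bases printed.
Rpl6: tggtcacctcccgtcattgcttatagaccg
Rpl10a: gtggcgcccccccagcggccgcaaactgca
A match of letters describes an annotated start and was not measured in these libraries.

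The Purkinje origin of the RNA was visible in every library. Pcp2, whose promoter drives the tag, had log2 values between 14.55 and 15.01, and the mean of 16 Purkinje markers lay between 11.81 and 12.33. RNA of other cell types was also present, since the mean of the 40 tested markers of granule cells, glia, interneurons and vessels (of 53 listed) ranged from 7.07 to 9.50 in the libraries of 4 weeks, from 6.41 to 8.98 at 8 weeks and from 7.74 to 8.44 at 12 weeks. Its part in the differences below was not tested. A fit with this marker mean as a covariate changed the sign or call of no named result, but it does not measure that part. Fmr1 read 7.10 and 6.03 in replicates 1 and 2 labelled CGG90 at 12 weeks, within the range of the 9 wild-type libraries, whereas the other 7 CGG90 libraries had at least 11.01. These 2 libraries go against their label, and CGG90 is used below as the label, not as a checked genotype, at 12 weeks. In ribosome-bound RNA of a tissue, a lower value cannot tell fewer tagged cells from less message per cell.

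The ribosomal protein messages gave steady signals. The median within-group SD of the 43 genes was log2 0.19, with quartiles of 0.16 and 0.27, against 0.59 over all tested genes. The members are bright, and bright probe sets vary less. The 29 members with a mean log2 value of at least 12 had a median SD of 0.17, against 0.20 for the 685 tested genes above the same level. Brightness above that level was not matched. Their 6 group means spanned a median of 0.28, against 0.37 for those 685 genes. Rpl38, a large subunit protein known from its skeletal patterning mutant, had the smallest SD at 0.047, with 18 values between 14.60 and 14.75. Rps29, a small subunit zinc-binding protein, had an SD of 0.053, with values between 14.47 and 14.73. Both lie near the top of the intensity range, where library maxima were between 15.68 and 15.86, and how far saturation narrows them was not tested. Rps28 followed with an SD of 0.11. Not all of the brightest members were so steady. Tested genes with a mean of at least log2 14 had SD quartiles of 0.08 and 0.14. Rpl38 and Rps29 lay below these quartiles, while Rpl13a (0.19), Rpl35 (0.20) and Rpl41 (0.19) lay above them.

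**Figure D1:**
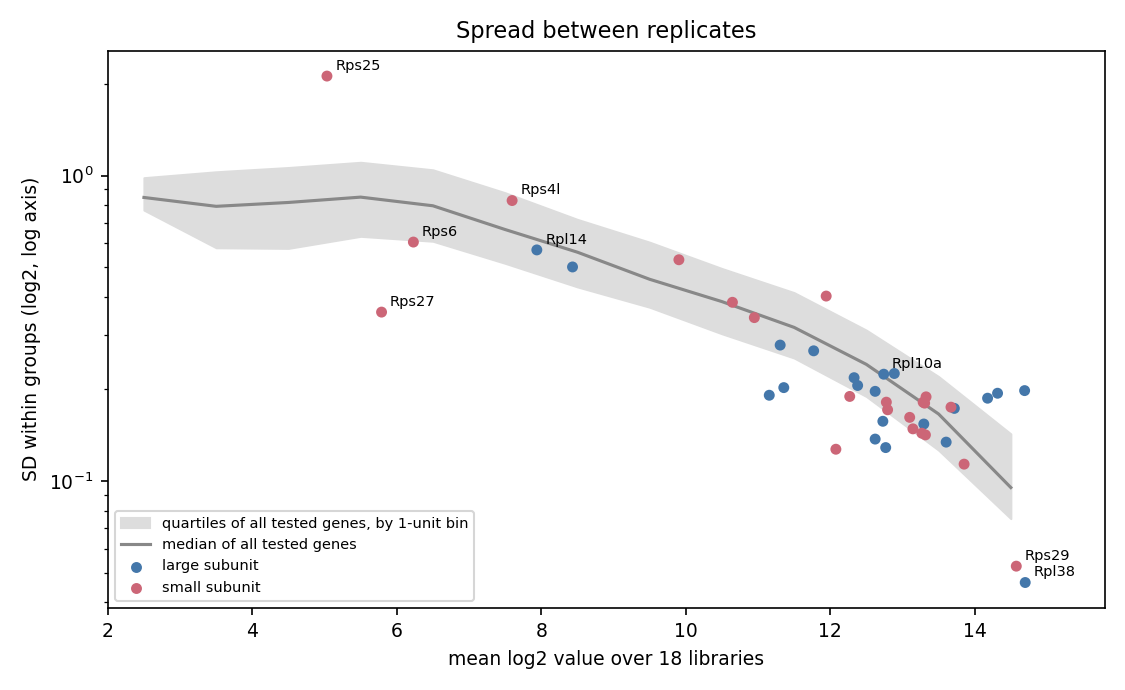
Within-group SD of each tested ribosomal protein gene (log2, logarithmic axis) against its mean log2 value over 18 libraries, with large subunit genes in blue and small subunit genes in red. The grey line and band give the median and quartiles of all tested genes in bins of 1 log2 unit, the bin from 14 upward being the last. Most members lie at the bright, steady end, and Rps25 stands far above the band with an SD of 2.12.

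Some dimmer members varied more. Rps25, a small subunit protein used by some viral and cellular internal ribosome entry sites, had an SD of 2.12, larger than that of 99.87% of tested genes. Its probe set read 9.11, 2.31 and 5.34 in the CGG90 libraries of 4 weeks and 7.74, 4.48 and 5.23 in the wild-type libraries of that age. At 8 weeks it read 5.74, 2.34 and 2.40 in CGG90 and 5.51, 5.86 and 4.50 in wild type. At 12 weeks it read 5.91, 4.90 and 4.10 in the libraries labelled CGG90 and 2.44, 4.90 and 7.80 in wild type. The groups overlapped at every age, and single libraries of 1 group lay up to several log2 units apart. Rps4l had an SD of 0.83, and Rps6, the target of the S6 kinases, one of 0.61. Both lie below the upper quartile of tested genes of like brightness. That quartile was 0.88 in the 1-unit bin from log2 7, which holds Rps4l, and 1.04 in the bin from 6, which holds Rps6. The probe sets used for Rps6, Rps25 and Rps27 had means between 5.03 and 6.23, and these genes are also annotated on probe sets with several symbols. The probe sets of the 6 untested genes stayed below log2 4 in all 18 libraries, from 2.22 for the lowest value of Rps16 to 3.97 for the highest of Rpl39l. Of those 6, 4 are also annotated on probe sets with several symbols, so their dim signal describes the probe set and not the gene.

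The members varied together from library to library. The median over the 43 members was 12.70, 12.75 and 12.91 in the CGG90 libraries of 4 weeks and 12.70, 12.95 and 12.90 in wild type. It was 12.90, 12.72 and 12.72 in CGG90 and 12.65, 12.67 and 12.93 in wild type at 8 weeks. It was 12.40, 12.63 and 12.71 in the libraries labelled CGG90 and 12.41, 12.79 and 12.72 in wild type at 12 weeks. The labelled genotypes overlapped at every age, and the 2 lowest libraries, 1 of each label, were both of 12 weeks and shared an immunoprecipitation day. The other 2 libraries of that day had 12.63 (CGG90 12 weeks) and 12.90 (CGG90 8 weeks). After group means were removed, a member's deviations correlated with the mean deviation of the other members at a median r of 0.53 over 18 libraries, above 0.5 in 23 members and below 0 in 3 (Rps4l, Rps29 and Rps9). These points share library, array and normalisation, so the values are given as a description. No such correlation was computed for other genes of like brightness, so it is not shown to be particular to the family. Rps15 (r = 0.90) and Rpl10a (r = 0.89), the gene of the tagged protein, followed the rest most closely. With the mean of the other-cell markers the median correlation was -0.20, negative in 30 members and positive in 13.

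**Figure D2:**
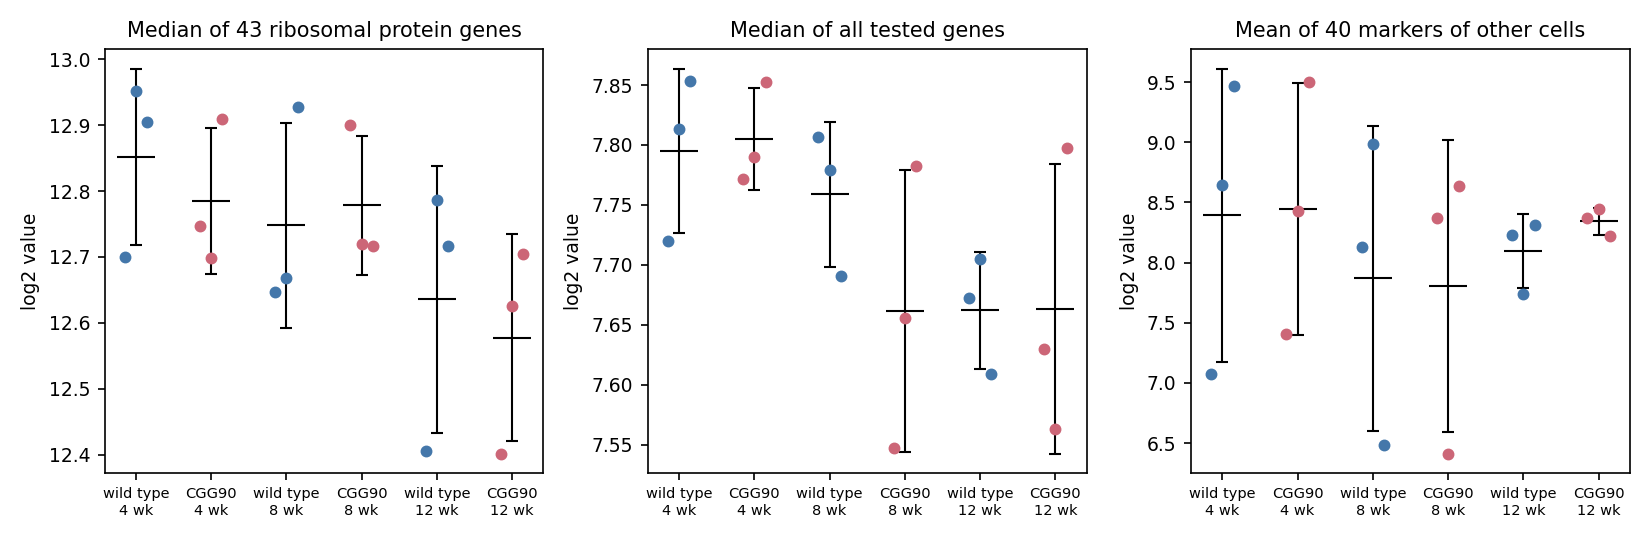
Log2 value of each library as the median of 43 ribosomal protein genes (left), the median of all tested genes (middle) and the mean of 40 markers of other cells (right), by labelled group. Points are libraries, and bars are the mean and SD of 3 libraries. The genotypes overlap at every age, and the lowest ribosomal protein medians, 12.40 and 12.41, are in the groups of 12 weeks.

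The study asked what the CGG repeat transgene does to RNA on Purkinje cell ribosomes. At 4 weeks no ribosomal protein gene passed the test between genotypes. By limma, with Benjamini-Hochberg adjustment over all 10068 genes, 0 of the 43 members passed an adjusted p of 0.05 and 0 had an unadjusted p under 0.05, where 0.0% and 0.487% of all tested genes did. The fit drew the variance of every gene towards a common value, whatever its brightness. For steady genes such as most members this widens the SE and intervals, here and below. Counts of members and shares of all genes are therefore not like for like. The median member difference (CGG90 minus wild type) was log2 0.007, with 23 members higher and 20 lower, beside -0.0092 over all genes. The differences of the middle 50% of members ran from -0.05 to 0.08. Rpl7l1, a paralogue of Rpl7 that works in ribosome assembly, differed by 0.30 ± 0.41 (SE), Rpl8 by 0.17 ± 0.26 and Rps19 by 0.20 ± 0.30. Rps3a1 differed by -0.21 ± 0.20 and Rpl7 by -0.13 ± 0.22. All 5 have limma adjusted p-values of 1.0, and the values of the genotypes overlapped for each. The other probe sets of Rpl7l1 gave -0.095 and -0.092, so its sign was not held. The 95% interval of 19 members lay within 0.5 log2 units of 0, and that of 37 within 1 unit. At 4 weeks the labels give same-numbered libraries of the genotypes the same immunoprecipitation day. Within those pairs the member median differed by 0.10, -0.21 and 0.08, and with the replicate number as a block 0 members passed as before.

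At 8 weeks the members leaned towards higher values in CGG90, and none of them passed. The median difference was 0.09, with 31 of 43 members higher, while over all genes it was -0.07. With each library centred on its median gene, 36 members were higher and 7 lower, with a median of 0.18. By limma 0 members had an unadjusted p under 0.05, against 3.71% of all genes, and 0 passed the adjusted threshold, against 0.00993%. Rps27, Rpl14 and Rps26 had the smallest p among those higher. Rps27, a small subunit protein with a zinc finger, read 7.21, 5.87 and 5.75 in CGG90 and 5.81, 5.42 and 5.85 in wild type. Only 1 CGG90 library stood clearly above the rest, and the difference of 0.59 ± 0.31 had a limma adjusted p of 1.0 and an unadjusted p of 0.0798. Rpl14 read 8.63, 8.80 and 8.02 in CGG90 and 8.03, 8.25 and 7.16 in wild type, 0.67 ± 0.45. Rps26, a protein at the messenger RNA exit channel, read 12.68, 12.16 and 11.91 in CGG90 and 11.98, 11.19 and 12.36 in wild type, 0.41 ± 0.34. The genotypes overlapped for both. Lower in CGG90 by the smallest p were Rpl4 (-0.25 ± 0.22), Rps25 (-1.80 ± 1.58) and Rpl7l1 (-0.45 ± 0.41), all with adjusted p of 1.0. Other probe sets of Rpl7l1 gave -0.12 and 0.29. On the only day that held both genotypes at 8 weeks, 1 library of each, the member median differed by -0.22 and 5 of 43 members were higher in CGG90, so the lean of the pooled comparison had the opposite sign within that day.

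**Figure D3:**
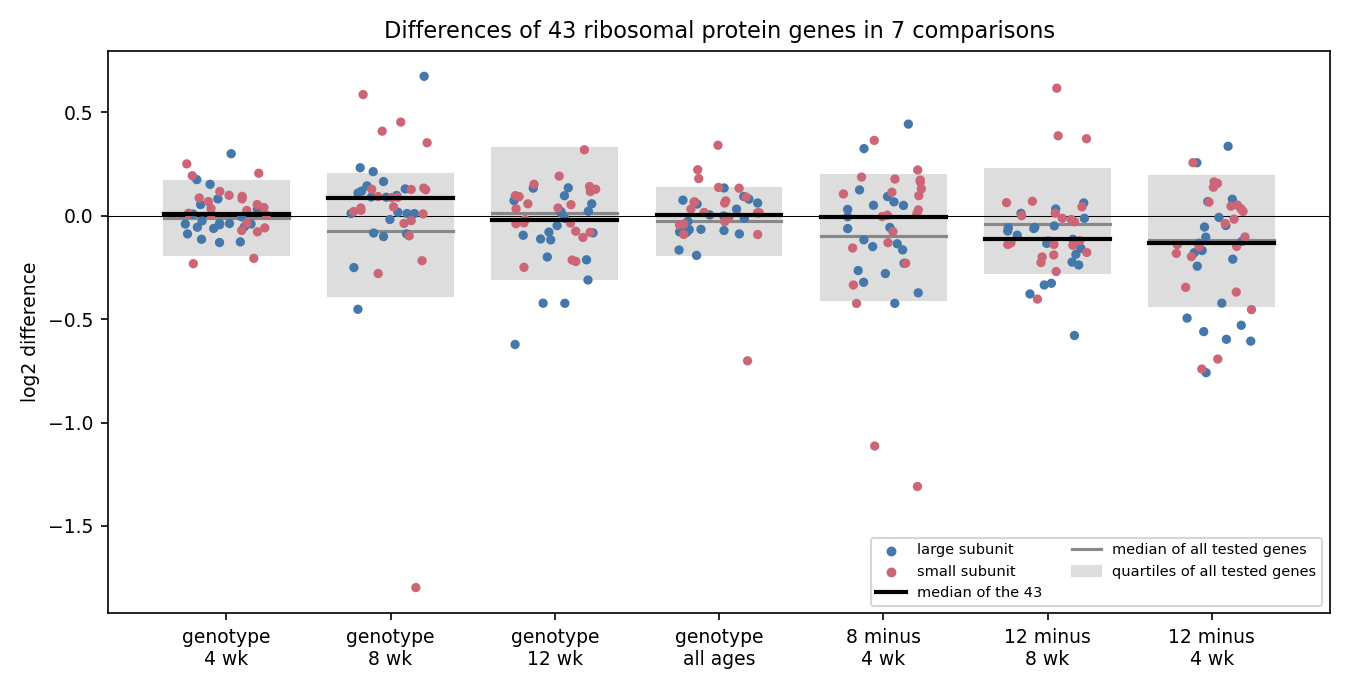
Log2 difference of each of 43 ribosomal protein genes in 7 comparisons, the genotype comparisons as CGG90 minus wild type, with large subunit genes in blue and small subunit genes in red. Black lines are their medians, grey lines and boxes the median and quartiles of all tested genes. No member passed the adjusted threshold in any comparison, and the members' medians lie between -0.13 and 0.09.

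At 12 weeks again no member passed the test. The median member difference was -0.019, with 20 of 43 members higher, against 0.012 over all genes. By limma 0 members passed (0.0% of all genes did) and 1 had an unadjusted p under 0.05, against 5.3% of all genes. That member was Rplp2, an acidic protein of the P-stalk. It read 13.94, 14.11 and 13.94 in wild type and 13.40, 13.22 and 13.49 in the libraries labelled CGG90. The groups did not overlap, and the library of high Fmr1, replicate 3, stood beside the other 2. How many of all tested genes had no overlap at 12 weeks was not counted. Separation is therefore not shown to be a trait of this member or of those named below. The difference was -0.62 ± 0.21, with an unadjusted p of 0.00913 and an adjusted p of 0.873, the latter between 0.425 and 1.0 over the alternatives tried. On the 1 day shared by libraries of both labels it was -0.62, but the 2 libraries labelled CGG90 of that day are those with Fmr1 at the wild-type level, so this value compares labels and not genotypes. Without those 2 libraries the difference of Rplp2 was -0.50, with a limma adjusted p of 1.0. At 4 weeks Rplp2 had read 13.85, 13.62 and 13.91 in CGG90 and 13.71, 14.02 and 13.78 in wild type, and at 8 weeks 13.59, 13.88 and 13.74 in CGG90 and 13.51, 13.33 and 13.88 in wild type. The genotypes overlapped at both of those ages.

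The other members of small p at 12 weeks were further from any threshold. Rpl37a, a zinc-binding large subunit protein, read 13.10, 13.09 and 13.12 in the libraries labelled CGG90 and 13.39, 13.35 and 13.50 in wild type. These groups did not overlap, with a difference of -0.31 ± 0.20 and a limma adjusted p of 0.94. Its other bright probe set gave -0.15. Rps24 differed by -0.22 ± 0.21. Among members higher in the libraries labelled CGG90, Rps3a1 differed by 0.15 ± 0.20, Rpl13a by 0.13 ± 0.21 and Rpl35 by 0.13 ± 0.22. Rpl35 read 14.73, 14.77 and 14.79 in the libraries labelled CGG90 and 14.51, 14.71 and 14.66 in wild type, without overlap but with only a narrow gap. The direction of Rpl13a was not held. Another of its probe sets gave -0.44, the mean of its probe sets -0.046, the fit without the 2 libraries against their label -0.021, and the fit without wild type 12 weeks replicate 1 -0.096. Markers of other cells were higher in those libraries for 28 of 40 genes, with a median difference of 0.27, and their part in these values was not tested. On the shared day, with the 2 libraries labelled CGG90 that have Fmr1 at the wild-type level and 1 of wild type, the member median differed by 0.21, which is opposite in sign to the pooled value.

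Averaged over the 3 ages no member passed between the labelled genotypes, with the 2 libraries against their label included. The median difference was 0.0035 (22 members higher, 21 lower), beside -0.024 over all genes. With each library centred on its own median the split became 28 higher and 15 lower and the median 0.032. By limma 0 members passed (0.0% of all genes) and 0 had an unadjusted p under 0.05 (2.1% of all genes). The 95% interval of 33 of the 43 members lay within 0.5 log2 units of 0, and that of 41 within 1 unit. Rplp2 had the smallest p, with -0.17 ± 0.12, followed among the lower members by Rpl7l1 (-0.19 ± 0.23) and Rps3a1 (-0.09 ± 0.12). Rps26 (0.22 ± 0.20), Rps19 (0.18 ± 0.17), a protein whose loss causes Diamond-Blackfan anaemia in humans, and Rps4l (0.34 ± 0.37) led the higher ones, and all 6 had adjusted p of 1.0. Other probe sets of Rpl7l1 gave 0.023 and 0.11. The moderated F test of whether the genotype difference depended on age passed for 0 members, against 0.00993% of all genes. At an unadjusted p under 0.05 it called Rplp2 alone, 1 of 43 members, against 2.85% of all genes.

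Rpl10a, whose protein carries the tag, did not pass the test in any comparison. Its only single-symbol probe set read 12.96, 12.55 and 12.76 in CGG90 and 12.70, 13.20 and 12.75 in wild type at 4 weeks. At 8 weeks the values were 12.90, 12.77 and 12.64 in CGG90 and 12.68, 12.56 and 13.04 in wild type. At 12 weeks they were 12.52, 12.66 and 12.62 in the libraries labelled CGG90 and 12.32, 12.87 and 12.85 in wild type. The genotypes overlapped at each age, with differences of -0.13 ± 0.23, 0.010 ± 0.23 and -0.079 ± 0.23. The value at 8 weeks became -0.0054 after quantile normalisation. With immunoprecipitation day as a fixed block the values at 8 and 12 weeks became -0.40 and 0.27. These equal the differences within the only day of each age that held both labels. At 8 weeks that day had 1 library of each genotype. At 12 weeks it had 1 of wild type and replicates 1 and 2 labelled CGG90, which have Fmr1 at the wild-type level. The mean difference over ages was -0.066 ± 0.13, with an exact permutation p of 0.509 (two-sided, 8000 exchanges of genotype within age). Whether this probe set also reads the tag's own message was not tested. Between ages Rpl10a differed by -0.06 ± 0.16 from 4 to 8 weeks, by -0.12 ± 0.16 from 8 to 12 weeks and by -0.18 ± 0.16 from 4 to 12 weeks, and centring turned the first of these to 0.033.

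The comparisons between ages held the members with the smallest p, although again none passed. Between 4 and 12 weeks, averaged over genotypes, 30 of 43 members were lower and 13 higher, with a median of -0.13. The median over all 10068 genes was -0.12, close to that of the family. With each library centred on its median gene the members split into 22 higher and 21 lower with a median of 0.004, and after quantile normalisation into 17 higher and 26 lower. By limma 0 members passed, against 0.0199% of all genes. At an unadjusted p under 0.05 there were 7 members, all lower, which is 7 of 43 beside 14.7% of all genes. Of the 7, 5 encode large subunit proteins (Rpl7, Rpl7a, Rpl4, Rpl6 and Rpl8) and 2 small subunit proteins (Rps10 and Rps7). Rpl6, Rpl8, Rps10 and Rps7 are named here after their values were seen. Large subunit members were lower in 17 of 21 cases, with a median of -0.17, and small subunit members in 13 of 22, with a median of -0.07. With centring these became 11 of 21 and 10 of 22.

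Rpl7, an RNA-binding protein of the large subunit, had the lowest difference of the 43 members between 4 and 12 weeks. Its 6 libraries of 4 weeks lay between 11.50 and 12.04 (median 11.76), those of 8 weeks between 11.09 and 11.49 (median 11.35) and those of 12 weeks between 10.82 and 11.32 (median 10.87). All libraries of 4 weeks were above all later ones, while 8 and 12 weeks overlapped. The share of all tested genes without overlap between ages was not counted, here or for the members below. The difference from 4 to 12 weeks was -0.76 ± 0.16, a ratio of 0.591, with a limma unadjusted p of 0.000231 and an adjusted p of 0.129, which ranged from 0.0315 to 0.974 over the alternatives. It passed the threshold in 2 of them, with no filter on dim genes (adjusted p = 0.0315) and without wild type 12 weeks replicate 2 (adjusted p = 0.047). Relative to the median gene of each library it was -0.62, with an adjusted p of 0.15. The steps were -0.42 ± 0.16 to 8 weeks and -0.34 ± 0.16 from 8 to 12 weeks. Both genotypes had the lower mean at 12 weeks, from 11.82 ± 0.22 (SD, n = 3) to 11.02 ± 0.26 in wild type and from 11.69 ± 0.18 to 10.97 ± 0.23 in the libraries labelled CGG90.

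Rpl7a, Rpl4 and Rpl6, other large subunit proteins, had the same order of ages. Rpl7a lay between 12.45 and 12.89 (median 12.70) at 4 weeks and between 11.80 and 12.46 (median 12.03) at 12 weeks, -0.61 ± 0.16 with a limma adjusted p of 0.155. Only the highest library of 12 weeks reached the lowest of 4 weeks. Rpl4 lay between 12.70 and 13.13 (median 12.92) at 4 weeks and between 12.17 and 12.67 (median 12.29) at 12 weeks, without overlap, -0.56 ± 0.15 with an adjusted p of 0.162. Rpl6 lay between 12.74 and 12.94 (median 12.87) at 4 weeks and between 12.22 and 12.70 (median 12.43) at 12 weeks, also without overlap, -0.42 ± 0.14 with an adjusted p of 0.195. Centred on the median gene the differences of Rpl7a and Rpl4 were -0.47 and -0.42. Rpl8, a protein near the peptidyl transferase centre, differed by -0.50 ± 0.18, Rps10 by -0.37 ± 0.15 and Rps7 by -0.35 ± 0.15, and the ages overlapped for each. In the same comparison 27 of 40 markers of other cells were lower, with a median of -0.20, and their part in these values was not tested. The library titles carry another number, which changes with age, and what it marks cannot be told apart from age.

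**Figure D4:**
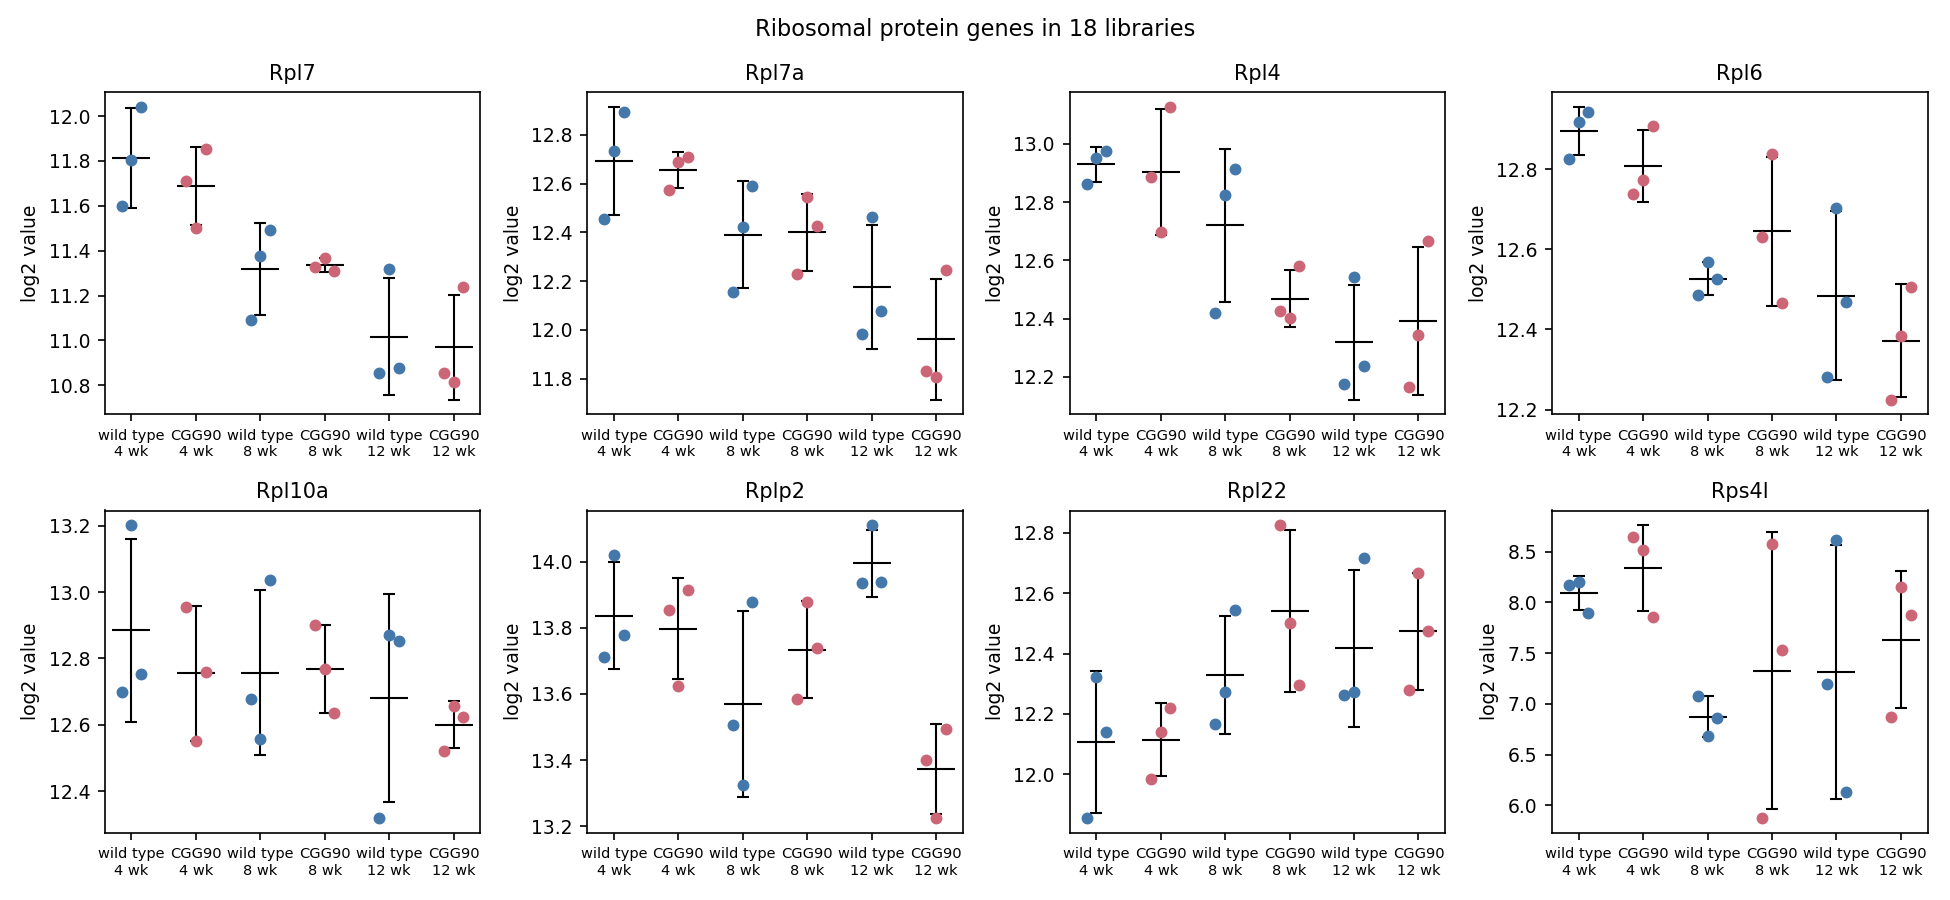
Log2 values in 18 libraries for Rpl7, Rpl7a, Rpl4, Rpl6, Rpl10a, Rplp2, Rpl22 and Rps4l, by labelled group (wild type blue, CGG90 red). Points are libraries, and bars are the mean and SD of 3 libraries. Each panel has its own axis. Rpl7 goes from a median of 11.81 at 4 weeks to 10.88 at 12 weeks in wild type and from 11.71 to 10.85 in CGG90 as labelled, and Rplp2 separates the labelled genotypes only at 12 weeks.

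A few members were higher at the later ages. Rpl22, a large subunit protein with roles outside the ribosome in lymphocyte development, lay between 11.85 and 12.32 (median 12.14) at 4 weeks, between 12.17 and 12.83 (median 12.40) at 8 weeks and between 12.26 and 12.72 (median 12.38) at 12 weeks. The ages overlapped, and the difference from 4 to 12 weeks was 0.34 ± 0.16 with a limma adjusted p of 0.353. Its 3 probe sets gave 0.34, 0.30 and 0.32. Rpl41, the smallest ribosomal protein, lay between 13.73 and 14.35 (median 14.15) at 4 weeks and between 14.31 and 14.70 (median 14.55) at 8 weeks, 0.44 ± 0.15 with an adjusted p of 0.248. Only 1 library of 4 weeks, wild type replicate 2, reached the lowest library of 8 weeks. By 12 weeks it lay between 14.13 and 14.56, 0.26 ± 0.15 above 4 weeks. Rps28 was 0.16 ± 0.13 higher at 12 than at 4 weeks.

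Between 4 and 8 weeks the family's median was -0.0041, with 21 members higher and 22 lower, beside -0.10 over all genes. With centring the split was 26 and 17. By limma 0 members passed (0.0497% of all genes) and 4 had an unadjusted p under 0.05 (12.9% of all genes). These were Rpl41, higher, and Rpl7, Rps4l and Rps9, lower. Rps4l lay between 7.86 and 8.64 (median 8.19) at 4 weeks and between 5.87 and 8.57 (median 6.97) at 8 weeks, -1.11 ± 0.45 with an adjusted p of 0.315. Most libraries of 8 weeks were low, and CGG90 replicate 2 was as high as those of 4 weeks. In this interval 35 of 40 markers of other cells were lower, with a median of -0.64, and their part in it was not tested. The remaining higher members of small p were Rpl22 (0.32 ± 0.16) and Rps27 (0.36 ± 0.22).

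Between 8 and 12 weeks 33 of 43 members were lower, with a median of -0.11 against -0.04 over all genes. With immunoprecipitation day as a fixed block the median was -0.41, against 0.13 over all genes. Under that block the ages are joined only by the day of CGG90 8 weeks replicate 1. The 12-week libraries of that day include those labelled CGG90 with Fmr1 at the wild-type level. In this interval 31 of 40 markers of other cells were higher, with a median of 0.33, and their part in it was not tested. Centring or quantile normalisation each left 28 lower. By limma 0 members passed (0.00993% of all genes) and 3 had an unadjusted p under 0.05 (6.65% of all genes). Rps3a1, a small subunit protein, lay between 13.19 and 13.61 at 8 weeks and between 12.70 and 13.12 at 12 weeks. These ages did not overlap, and the difference was -0.40 ± 0.14 with an adjusted p of 0.667. Its 4-week libraries had covered 12.82 to 13.38, overlapping both later ages. Rpl7 (-0.34 ± 0.16) and Rps9 (0.39 ± 0.15) were the others of the 3, and Rpl8 followed with -0.38 ± 0.18. Rps9, a small subunit protein, had differed by -0.34 ± 0.15 between 4 and 8 weeks. Its second probe set gave -0.06 from 4 to 8 weeks and -0.17 from 8 to 12 weeks, so the probe sets had opposite signs in the later interval. Rps4l (0.37 ± 0.45) and Rps25 (0.62 ± 1.12) came next among the higher members. Without CGG90 8 weeks replicate 1 Rps4l differed by 0.0087, and without wild type 12 weeks replicate 2 by 0.046. Rps25 turned to -0.073 without wild type 12 weeks replicate 3 and to -2.87 with immunoprecipitation day as a block.

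Probe sets of the same gene gave a check that the choice of the brightest one did not use. Of the tested members, 21 had several single-symbol probe sets that passed the same filter, 62 in all. For the change from 4 to 12 weeks all probe sets of a gene had the same sign in 16 of the 21 genes, and the median distance between the lowest and highest was 0.18. For the genotype difference averaged over ages they shared a sign in 12 of 21, with a median distance of 0.07. The widest distance was that of Rps20, 0.94. Its bright probe sets gave 0.07 (the one used) and 0.09, and its dim ones, with means of 5.78 and 5.26, gave 0.45 and 1.01. These dim probe sets were not tested. The 3 probe sets of Rpl7 gave -0.76, -0.74 and -0.25. All 5 probe sets of Rps10 were lower at 12 weeks, from -0.51 to -0.07. Both of Rps7 were lower (-0.35 and -0.25), and all 4 of Rps24 (-0.25 to -0.15). Probe sets of 1 gene share libraries and often probes, so they are not replicates of the condition. The 95 probe sets above background that name a ribosomal protein among several symbols gave a median of -0.07 from 4 to 12 weeks, -0.09 from 8 to 12 weeks with 83 lower, and 0.03 for the genotype difference over ages.

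**Figure D5:**
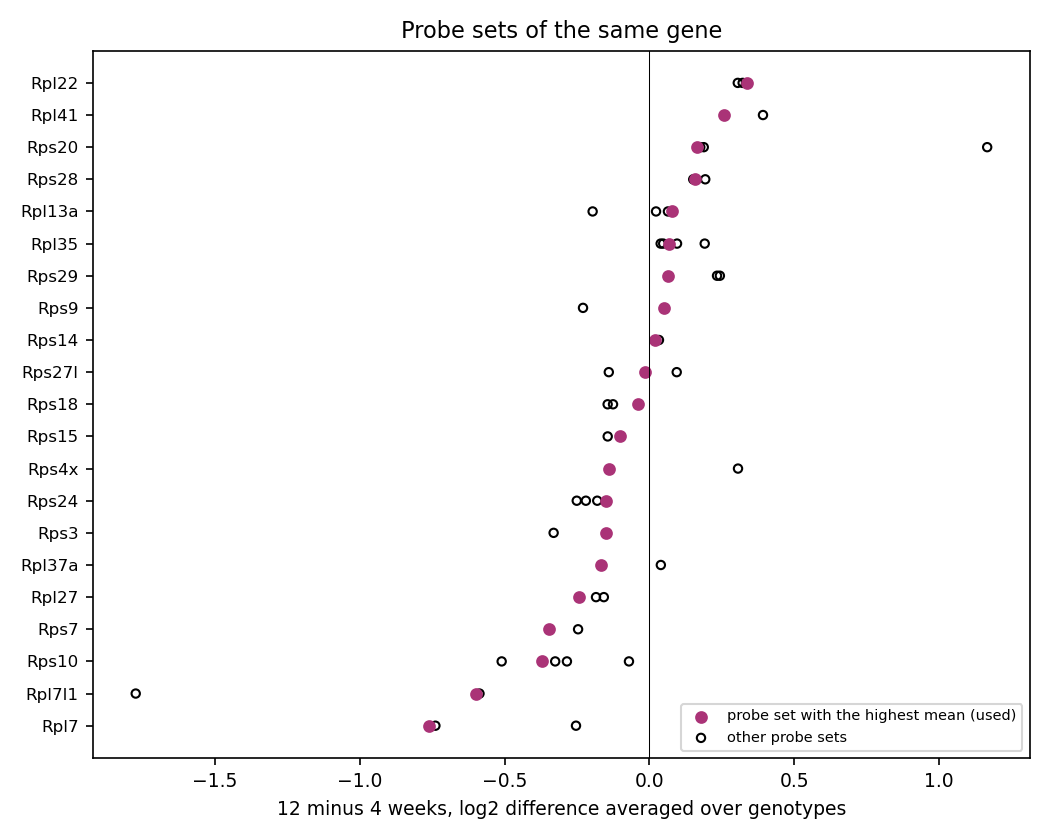
Log2 difference from 4 to 12 weeks, averaged over genotypes, for each probe set of the 21 ribosomal protein genes with several probe sets above the filter, in the order of the probe set used (filled). Open circles are the other probe sets of the gene. Probe sets of Rpl7, Rps10, Rps7 and Rpl7l1 all lie below 0 and those of Rpl22, Rpl41 and Rps28 all above it.

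Paralogues and special members were examined by name. Rpl22l1, the paralogue that can replace Rpl22, differed by -0.12 ± 0.19 from 4 to 12 weeks where Rpl22 differed by 0.34. Rpl7l1 differed by -0.60 ± 0.29 and Rpl7 by -0.76. The sizes depended on the probe set, since the others of Rpl7l1 gave -0.59 and -1.77 and those of Rpl7 -0.74 and -0.25. Rps27l, a p53-responsive paralogue of Rps27, differed by -0.017 ± 0.30 and Rps27 by 0.14 ± 0.22. None of these pairs was tested for a difference between its members. Of the P-stalk, Rplp0 (-0.10 ± 0.15) and Rplp2 (-0.13 ± 0.15) were measured and Rplp1 was annotated only with several symbols. Rpl11, which with Rpl5 and the 5S RNA binds Mdm2 when ribosome assembly fails, differed by -0.0084 ± 0.13, with an SD of 0.13. After centring, Rpl22l1 (0.013), Rps27l (0.12), Rplp0 (0.034), Rplp2 (0.004) and Rpl11 (0.13) had the opposite sign. Cytoplasmic ribosomal proteins that the symbol rule misses, Rpsa and Fau, had 0 of 2 genes past the threshold and a median of -0.04.

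The wider machinery of ribosome production was set beside the members for the change from 4 to 12 weeks, in lists chosen for their function. By limma none of the lists had a gene past the threshold in this comparison. Ribosome biogenesis factors, which process and assemble the subunits in the nucleolus, were lower in 28 of 31 genes with a median of -0.47, and in 26 of 31 with a median of -0.33 after centring. Mitochondrial ribosomal proteins were lower in 58 of 76 genes (median -0.23, after centring -0.09 with 49 lower). Initiation factors were lower in 17 of 24 (median -0.26, after centring -0.12), and elongation factors with other oligopyrimidine messages in 10 of 11 (median -0.14, after centring -0.0057). Regulators of ribosomal protein translation, mTOR and LARP1 among them, had a median of -0.13 over 9 genes, which turned to 0.010 after centring and 0.016 after quantile normalisation. Of 4 p53 targets, 2 were higher and 2 lower, from -1.83 to 0.70. The proteasome (33 of 37 genes lower, median -0.44) and the respiratory chain (53 of 81 lower, median -0.08, after centring 0.05) served as other large complexes. Their genes were taken by symbol and include Psmc3ip and the Ndufaf genes, which do not encode subunits. At an unadjusted p under 0.05 the counts were 10 of 31 for biogenesis, 21 of 76 for mitochondrial ribosomal proteins and 24 of 37 for the proteasome, 9 of 24 for initiation, 15 of 81 for the respiratory chain, 3 of 9 for the regulators, 3 of 4 for the p53 targets and 0 of 11 for elongation, next to 7 of 43 members and 14.7% of all genes. No difference between these lists was tested.

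The values were also read by the annotated start. From 4 to 12 weeks the 8 tested members with an oligopyrimidine start had a median of -0.09, the 13 with a run near the start -0.12 and the 16 with neither -0.15. For the genotype difference over ages the medians were 0.032, -0.0092 and 0.0041, and no difference between these groups was tested. Rps10 and Rpl38, both with an oligopyrimidine start, differed by -0.37 and by -0.055 from 4 to 12 weeks, and Rpl6, with neither, by -0.42.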

How the data were processed

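The deposited values are log2 expression values made by the authors with GCRMA, per the submitters' processing notes, from short-oligonucleotide arrays, 1 per library. The version, and which arrays were normalised together, are not given in the sources used here. Of 45101 probe sets, 34958 had 1 gene symbol, 932 several and 9211 none in the annotation used, and genes were taken from the first kind only. The 6 group means were fitted with limma 3.58.1 in R 4.3.3 (12 residual degrees of freedom), two-sided, with Benjamini-Hochberg adjustment over 10068 genes and a threshold of 0.05. Variances were moderated towards a common value (2.55 prior degrees of freedom) without a trend by brightness. The fit was tested on simulated data. Named were Rpl10a, the 3 members of smallest p in each direction of each comparison, the extremes of spread, paralogues with their parents, the P-stalk and the 5S partners. The members and lists were chosen with earlier results of these data known. Alternatives covered scaling, filters, choice of probe set, array weights, immunoprecipitation day, the marker mean, the replicate block and leaving out libraries. At 4 weeks same-numbered libraries share a day, per the labels, and their deviations correlated at 0.50, 0.02 and 0.61. The number of arrays limits the precision.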

Additional observations from a re-analysis of the deposited data

How the results depend on the processing

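Of 242 counts of members past the threshold under alternatives, 240 equalled the reported count. The others were both for 4 to 12 weeks, where 1 member, Rpl7, passed with no filter on dim genes (-0.76, adjusted p = 0.0315) and without wild type 12 weeks replicate 2, so that leaving out libraries gave counts of 0 to 1 and differences of -0.83 to -0.70 for Rpl7. With immunoprecipitation day as a fixed block the members' medians became -0.22 at 8 weeks, 0.21 at 12 weeks and -0.41 from 8 to 12 weeks. Over all genes they were 0.011, -0.098 and 0.13. At 8 and 12 weeks the genotype values of this block repeat those within the shared days and are not a further observation. The 8-week day held 1 library of each genotype, and the 12-week day the 2 libraries against their label and 1 of wild type. Under that block Rpl10a became -0.40 at 8 and 0.27 at 12 weeks, Rps26 -0.45 and Rps27 -0.10 at 8 weeks, and Rps25 -2.87 from 8 to 12 weeks. Centring gave 0.033 for Rpl10a from 4 to 8 weeks and, from 4 to 12 weeks, 0.13 for Rpl11, 0.013 for Rpl22l1, 0.034 for Rplp0, 0.004 for Rplp2 and 0.12 for Rps27l. Quantile normalisation gave -0.0054 for Rpl10a at 8 weeks, and 0.038 for Rpl11 and 0.052 for Rps27l from 4 to 12 weeks. Without the 2 libraries that go against their label, Rpl13a became -0.021 at 12 weeks, and Rpl11 0.052 and Rps27l 0.022 from 4 to 12 weeks. The mean of probe sets gave -0.046 for Rpl13a at 12 weeks, and array weights -0.10 for Rps19 at 4 weeks.

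Leaving out 1 library at a time changed signs for Rpl10a (-0.13 to 0.022 from 4 to 8 weeks, -0.23 to 0.029 at 4, -0.090 to 0.15 at 8 and -0.26 to 0.016 at 12 weeks) and for Rpl13a at 12 weeks (-0.10 to 0.26). It also did so from 4 to 12 weeks for Rpl11 (-0.054 to 0.028), Rplp0 (-0.16 to 0.0025) and Rps27l (-0.18 to 0.18), and from 8 to 12 weeks for Rps25 (-0.073 to 1.27). The cause of these changes was not tested. In all, 14 of 55 named results changed sign under some alternative. With the replicate block the genotype median over ages was 0.0035 and 0 members passed, and the block changed no call. Comparisons between ages could not be fitted with it. A fit of the 4-week libraries alone with the block was chosen after seeing the data. Another probe set of Rpl10a was not run, since it has 1.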
